A study of Saccharomyces cerevisiae with 10 samples.

Results

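The tricarboxylic acid (TCA) cycle and the respiratory chain were followed here through 49 nuclear-encoded yeast genes, out of 7252 genes in the count table. They were chosen by name from a list, with no rule on their values, although earlier results of these data were known. The list holds 3 citrate synthases, 10 genes of the other TCA cycle steps, 4 of succinate dehydrogenase, 3 NADH dehydrogenases, 9 of the cytochrome bc1 complex, 2 cytochromes c, 7 of cytochrome c oxidase, 10 of the ATP synthase and the regulator HAP4. The samples were the low and high subpopulations of a prototrophic BY4741-based Saccharomyces cerevisiae strain that carried sfGFP under the RPL28 promoter, pRPL28, which drives a ribosomal protein gene. Both subpopulations came from cells grown for 4 h in YPD, washed in PBS and kept for 1 h in nitrogen-limited glucose medium with 0.8 mM proline. They were then separated by cell sorting on GFP fluorescence and side scatter, with doublets and budding cells gated out. There were 5 low and 5 high libraries of poly-T selected RNA, and the study compared 3 of the low libraries with the 5 high ones after leaving 2 low libraries out by principal component analysis.

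The TCA cycle oxidises acetyl-CoA in the mitochondrial matrix and delivers electrons as NADH and, through succinate dehydrogenase, to ubiquinone. Budding yeast lacks the proton-pumping complex I of other eukaryotes and passes electrons from NADH to ubiquinone with single-subunit dehydrogenases. The electrons then run through the cytochrome bc1 complex, cytochrome c and cytochrome c oxidase to oxygen, and the ATP synthase uses the proton gradient that these complexes build. In glucose many of these genes are held low, and their activation in other media depends on the CCAAT-binding Hap2/3/4/5 complex, of which Hap4 is the regulated activating subunit. The retrograde factors Rtg1 and Rtg3, which bind GTCAC, take over part of this task for the first steps of the cycle when respiration is impaired, with CIT2 as their best-known target.

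The letters that the Hap complex reads were common in front of these genes. In the 400 bases before the start codon, CCAATNA on either strand occurred in 36 of the 49 genes (73.5%), against 1190 of 6007 protein-coding genes of the R64 genome (19.8%). The shorter CCAAT, which every CCAATNA contains, was found before 42 of the 49 genes (85.7%) and before 52.8% of all genes. By complex, CCAATNA stood before 9 of 10 ATP synthase genes, 6 of 7 cytochrome c oxidase genes, 8 of 10 TCA cycle genes, 3 of 4 succinate dehydrogenase genes, 6 of 9 bc1 genes, 2 of 3 NADH dehydrogenase genes, 1 of 3 citrate synthase genes and neither cytochrome c gene. GTCAC on either strand occurred before 25 of the 49 genes (51.0%) and before 34.8% of all genes, with 3 occurrences before CIT2. Such a match is a description of letters in a window that can run into a neighbouring gene. The windows printed here show the motif in capitals for the genes to which the results return, 5′ to 3′ on the strand of the gene, from the RefSeq R64 sequence. A TNATTGG or GTGAC in capitals is the motif on the other strand.
CIT1 (chrXIV:631340-631366, minus strand, 288 bases before the start codon): tacttttgtgTTATTGGaggatcgcaa
FUM1 (chrXVI:47045-47071, plus strand, 274 bases before the start codon): gggcgttcgaTGATTGGctctttcctg
SDH1 (chrXI:171430-171456, minus strand, 310 bases before the start codon): cgggggtggaCCAATCAcagcgcagaa
NDI1 (chrXIII:30018-30044, minus strand, 220 bases before the start codon): ttcattcggaCCAATCAtatgaaggca
QCR7 (chrIV:1496713-1496739, minus strand, 174 bases before the start codon): cttgttttgaCCAATCAggagcgacgc
COX8 (chrXII:910150-910176, minus strand, 194 bases before the start codon): acggtttgcaCCAATCAtacgagagaa
ATP16 (chrIV:442855-442881, plus strand, 157 bases before the start codon): agatgcccagCCAATCAaagcgcatta
HAP4 (chrXI:232122-232148, plus strand, 88 bases before the start codon): ccacacatatTTATTGGtctcctagta
CIT2 (chrIII:122659-122683, minus strand, 340 bases before the start codon): gggcgaagagGTCACgacctatttt
CIT2 (chrIII:122626-122650, minus strand, 307 bases before the start codon): gaaaaaaagtGTGACcttttccgta
CIT2 (chrIII:122510-122534, minus strand, 191 bases before the start codon): tatgaaattgGTGACgttaatctaa

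Library totals were 18977794 to 23644299 counts in the low libraries used, 21503922 and 15879779 in the left-out low libraries, and 22167864 to 27752702 in the high libraries. Genes at 0 counts numbered 983 to 1249 in the low libraries used and 1065 and 1552 in those left out, against 383 to 511 in the high libraries. Genes at 1 to 9 counts went the other way, with 33 to 47 in the low libraries used and 28 and 43 in those left out. H1_2609, H2_2609, H1_2709 and H2_2709 had 297 to 345 such genes, and H_2909 had slightly fewer than these. The part of this group-wide difference in the low-library values of weakly expressed genes, such as CIT3 and CYC1, was not tested. The sorted fractions also differed in their cell cycle genes. Of 15 markers of mitotic and budded cells, all tested, 14 were called lower in low, beside 281 of 6492 genes tested. The other marker, KIP2, was also below 0 (log2 fold change -0.76, edgeR, adjusted p = 0.0816). The median log2 fold change was -2.79. Summed levels were 127 to 221 RPKM in the low libraries used, 161 and 241 RPKM in the left-out ones and 849 to 1193 RPKM in the high libraries. None of the 15 was at 0 in every library. With the replicate block in the 8 libraries 11 of the 14 kept their call, and CLB2, CDC20 and BUD3 lost it (edgeR, adjusted p = 0.0898, 0.0788 and 0.0696). In those 8 libraries the block leaves 3 pairs of a low and a high library to compare. Of 10 genes of daughter cell separation, DSE1, DSE2 and CTS1 were called higher and EGT2 was called lower in low. Among the 6492 genes tested, 54 were called higher and 281 lower. Over the 10 genes the log2 fold changes had a median of 0.42. Among the genes not called, DSE4 (-0.12) and ASH1 (-0.31) lay below 0. DSE3 (0.34), SCW11 (0.60), AMN1 (0.50) and PRY3 (0.06) lay above 0. The 10 genes summed to 1524 to 2055 RPKM in the low libraries used and to 1541 and 1111 RPKM in those left out. In the high libraries they summed to 507 to 806 RPKM. CTS1 was the largest single part of each sum, at 788 to 988 RPKM in the low libraries used and 139 to 200 RPKM in high. The part of these cell cycle differences in the values of the respiratory genes was not tested. In RNA from a sorted fraction, fewer cells that express a gene and less of its RNA per cell cannot be told apart.

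Levels are given as RPKM, counts per kilobase of gene length scaled to library size, with sizes adjusted by TMM over all 10 libraries, so that they can be compared between genes. Libraries are called by their titles, L for low and H for high, and the rest of a title is a code that 1 low and 1 high library share. Values of low are given for L1_2609, L2_2709 and L_2909, those of left-out low for L2_2609 and L1_2709, and those of high for H1_2609, H2_2609, H1_2709, H2_2709 and H_2909, in that order. Error is the SD over the 3 low libraries used or the 5 high libraries, and fold changes and adjusted p-values are those of edgeR in these 8 libraries unless another fit is named. The design text calls the samples of a group biological replicates, and nothing else in the labels says whether they came from separate cultures.

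The genes of respiration were among the abundant transcripts of both subpopulations. Their median level was 459 RPKM, against 48.1 RPKM over the 6492 genes tested, and 40 of the 49 lay in the top 10% of those genes. The highest mean over all 10 libraries was that of QCR8, a small subunit of the bc1 complex, at 1415 RPKM, and the lowest was that of CIT3 at 13.2 RPKM. CYC1 at 38.5 RPKM, FUM1 at 121 RPKM and HAP4 at 129.8 RPKM came next above CIT3. The genes under 400 bases, most of them small subunits, had a median of 526 RPKM (n = 14), against 422 RPKM for the others (n = 35). Apart from CIT3 and CYC1, every gene had at least 1176 counts in every library.

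**Figure D1:**
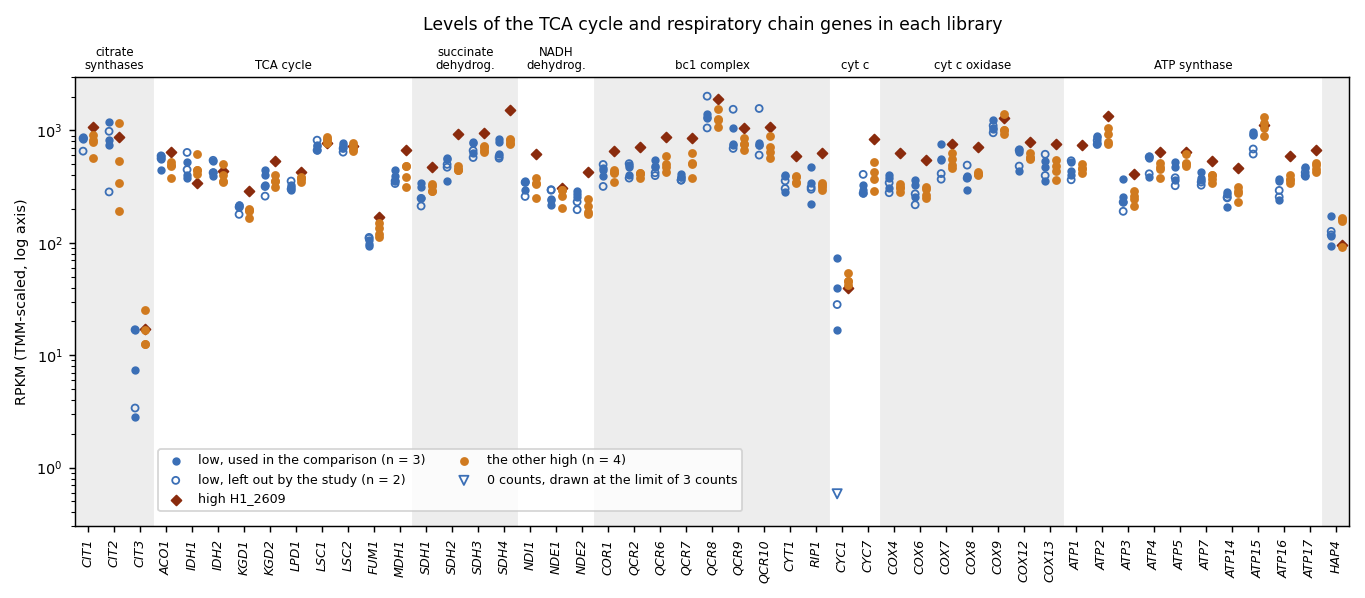
Level of each of the 49 genes in each of the 10 libraries, in RPKM on a log axis, by complex; low libraries are drawn left of high ones and the high library H1_2609 is a diamond. The ranges of low and high overlap for all of the 49 genes but FUM1, CIT3 and CYC1 lie below the others, and the diamond is the highest high library for 39 of the 49 genes.

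H1_2609 stood apart from the other high libraries. It was the highest of the 5 high libraries for 39 of the 49 genes (all genes tested, 28.1%) and the highest of all 10 libraries for 36. Its median deviation from each gene's median over the 8 libraries used was 0.52 on the log2 scale over the 49 genes. Over all genes tested it was 0.00, but TMM scaling keeps that median near 0 in every library. Other genes of similar level were not compared as a set. The deviation was 0.77 for the NADH dehydrogenases, 0.74 for succinate dehydrogenase, 0.66 for cytochrome c oxidase, 0.60 for the bc1 complex, 0.57 for the ATP synthase and 0.31 for the TCA cycle genes, while HAP4 stood at -0.49. Outside the 49 genes it was 0.30 for 13 other respiratory subunits and 0.04 for 32 respiratory assembly factors. H2_2609 was at the other end, the lowest of the 5 high libraries for 36 of the 49 genes (all genes tested, 26.4%), with a median deviation of -0.18. The low library that shares the code of H1_2609 did not stand out, with a median deviation of 0.01. Summed mitotic markers were at 981 RPKM in H1_2609, within the range of the other high libraries.

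**Figure D2:**
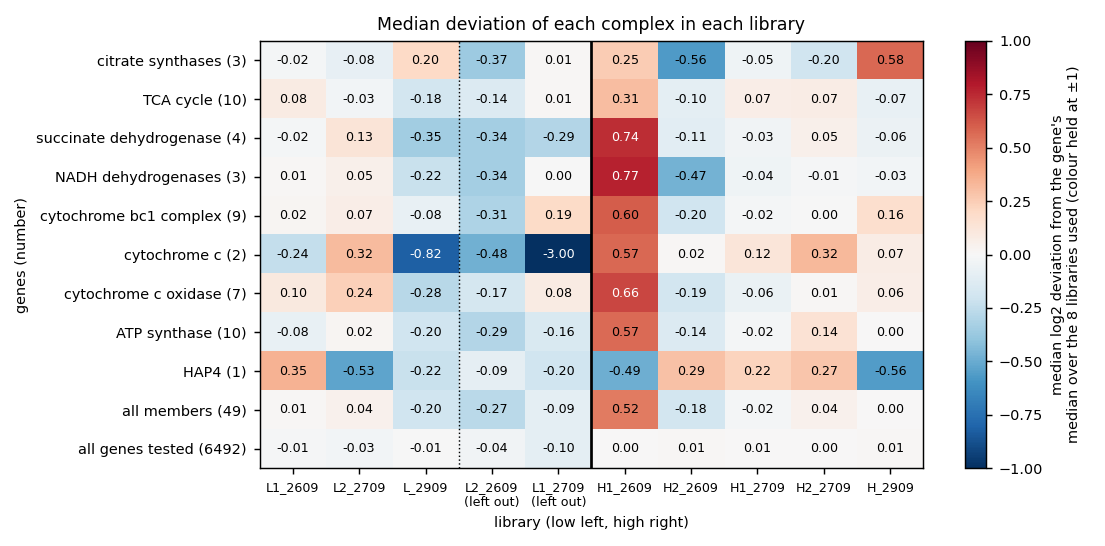
Median log2 deviation of the genes of each complex from their own median over the 8 libraries used, one column per library with low left of high, the number of genes in brackets; a count of 0 was set to the level of 3 counts. The high library H1_2609 lies above the others in every complex of more than 3 genes (0.31 to 0.74), the row of all genes tested stays between -0.10 and 0.01, and the cytochrome c value of the left-out low library L1_2709 rests on its 0 counts of CYC1.

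Over the 49 genes the coefficient of variation had a median of 13.9% in low (range 2.08 to 78.7%, n = 3 libraries) and of 24.3% in high (range 5.25 to 64.1%, n = 5). The median SD of log2 levels was 0.21 in low and 0.32 in high, against 0.31 in low and 0.26 in high over all genes tested. The study had left out 2 low libraries and no high one, so the spreads of the groups are not on equal terms. Over all 5 low libraries the coefficient of variation rose from 2.08 to 7.30% for KGD1 and from 2.16 to 43.6% for QCR10. It fell from 36.2 to 27.4% for RIP1 and from 78.7 to 73.5% for CIT3. In high, the steadiest genes were LSC1 (5.25%) and LSC2 (5.87%), the subunits of succinyl-CoA ligase, and LPD1 (7.85%), the dihydrolipoamide dehydrogenase that several dehydrogenase complexes share. CIT2 (64.1%), CYC7 (44.0%) and NDE2 (40.6%) varied most among the high libraries.

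None of the 49 genes passed the test between low and high in the 8 libraries. In them the quasi-likelihood test of edgeR, adjusted by Benjamini-Hochberg over all genes tested, called 0 of the 49 at a threshold of 0.05, while it called 335 of 6492 genes (5.16%). LPD1, FUM1, QCR7 and CYC7 had an unadjusted p under 0.05, which is 4 of 49 (8.16%) against 17.6% of all genes tested. DESeq2 on the same libraries also called 0 of the 49, beside 602 of 6492 genes (9.27%), and limma-voom on all 10 called 0, beside 588 of 6374 (9.22%). With the codes as a replicate block in the 8 libraries edgeR called 0 of the 49, beside 97 of 6492 genes (1.49%). That fit compares 3 pairs only, since H2_2609 and H1_2709 have no low library of their code there. In edgeR's fit to all 10 libraries the count was again 0, beside 226 of 6374 genes (3.55%). Of the fits run, only the one with the codes as a replicate block over all 10 libraries called 1 of the 49, ATP5, beside 248 of 6374 genes (3.89%).

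For 45 of the 49 genes the 95% interval of the low over high ratio lay within 2-fold either way, against 62.9% of all genes tested, and the exceptions were CIT2, CIT3, QCR7 and CYC7. The fold changes leaned below 0, with 39 of 49 lower in low and 10 higher (below 0 in 52.9% of all genes tested), and their median was -0.09 on the log2 scale against -0.02 over all genes. Without H1_2609 the median was 0.01, with 26 genes above 0 and 23 below. Over all 10 libraries it was -0.16, with 41 genes below 0. The size of the fold change exceeded the SD of the high libraries on the log2 scale for 10 of the 49 genes (20.4%, against 49.1% of all genes tested).

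**Figure D3:**
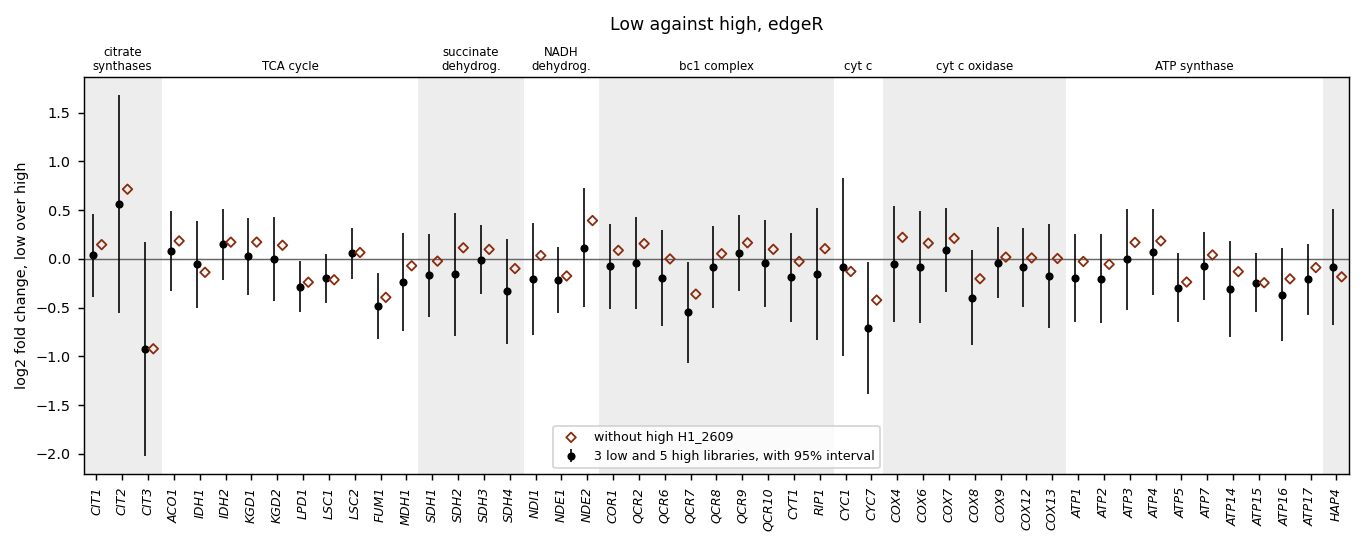
Log2 fold change of low over high for each of the 49 genes from edgeR (black, 3 low and 5 high libraries, bars are 95% intervals) and without the high library H1_2609 (open diamonds), by complex. The intervals of 45 genes stay within -1 and 1, and the diamonds lie higher than the black points for most genes of the respiratory complexes.

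Within codes the lean was uneven. The median over the 49 genes of low minus high, as a difference of log2 levels, was -0.56 for code 1_2609, -0.03 for 2_2609, -0.08 for 1_2709, 0.06 for 2_2709 and -0.20 for L_2909 and H_2909, while over all genes tested it was between -0.10 and -0.02. The number of genes higher in low was 5, 22, 20, 28 and 11 of 49 in the same order of codes. LPD1, LSC1, FUM1, SDH4, QCR6, QCR7, CYC7, ATP2, ATP5, ATP15, ATP16 and ATP17 were lower in low in all 5 codes, which is 12 of 49 (24.5%) against 13.4% of all genes tested, and 5 of the 12 belong to the ATP synthase. IDH2 alone was higher in low in all 5 codes (2.04%, against 7.75% of all genes tested). Every low library used lay below every high library for 4 genes, LPD1, LSC1, FUM1 and COX8 (8.16%, against 10.6% of all genes tested). With the left-out low libraries included this was so for FUM1 alone (2.04%, against 6.13%).

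**Figure D4:**
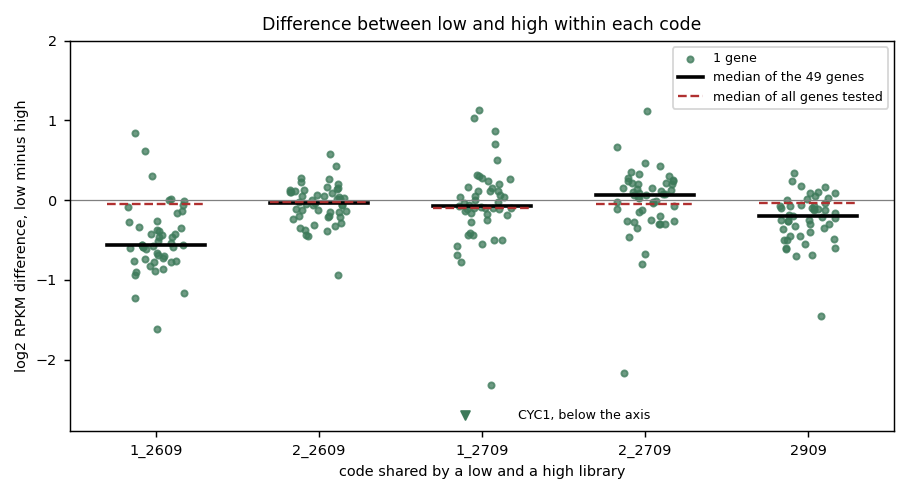
Difference in log2 RPKM, low minus high, between the 2 libraries that share a code; each point is 1 of the 49 genes, the black line their median and the dashed line the median over all genes tested. The black line lies furthest from the dashed line for code 1_2609 (-0.56 against -0.04), and CYC1, at 0 counts in L1_2709, falls below the axis.

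The 3 citrate synthases, which join acetyl-CoA to oxaloacetate, spanned a wide range of levels, and none of them passed the test between low and high. Cit1 is the mitochondrial enzyme of the cycle, Cit2 the peroxisomal one of the glyoxylate cycle, and Cit3 a minor mitochondrial one. CIT1 was at 833, 854 and 870.2 RPKM in low and 654 and 849 RPKM in left-out low, against 1077, 570.3, 816, 789 and 904 RPKM in high. Low used averaged 852 ± 18.7 RPKM and high 831 ± 184 RPKM, and the ranges overlapped, with L2_2609 and H2_2609 the lowest of their groups. CIT1 had a log2 fold change of 0.03 (SE 0.19, 95% interval -0.39 to 0.46, adjusted p = 0.959).

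CIT2 (YCR005C, chrIII:120946-122328, minus strand) was the most variable of the 49 genes among the high libraries. It stood at 831, 742 and 1187 RPKM in low and 284 and 983 RPKM in left-out low, against 868, 190.4, 539, 341 and 1172 RPKM in high. Within codes it was at 831 in low and 868 in high for 1_2609, at 284 in low and 190.4 in high for 2_2609, and at 1187 in low and 1172 in high for L_2909 and H_2909. In 1_2709 and 2_2709 low was at 983 and 742 RPKM, against 539 and 341 RPKM in high. CIT2 had a log2 fold change of 0.56 (SE 0.50, 95% interval -0.55 to 1.68, adjusted p = 0.628), an interval from 0.68-fold to 3.21-fold. CIT1 was 0.73 to 1.15 times CIT2 in the low libraries used and 0.77 to 2.99 times in the high libraries. CIT1 and CIT2 share 73.8% of their aligned coding bases and no run above 21 bases.

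CIT3 had the lowest level and the most negative fold change of all 49 genes. Its values were 7.39, 2.80 and 16.6 RPKM in low and 16.9 and 3.39 RPKM in left-out low, against 17.2, 12.5, 16.9, 12.6 and 25.5 RPKM in high. Of the 5 low libraries 3 lay at 2.80 to 7.39 RPKM and 2 at 16.6 and 16.9 RPKM, and those 2 overlapped the high libraries. The smallest count was 77. CIT3 had a log2 fold change of -0.93 (SE 0.49, 95% interval -2.02 to 0.17, adjusted p = 0.386), and it moved to -1.74 without L_2909 (adjusted p = 0.067).

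**Figure D5:**
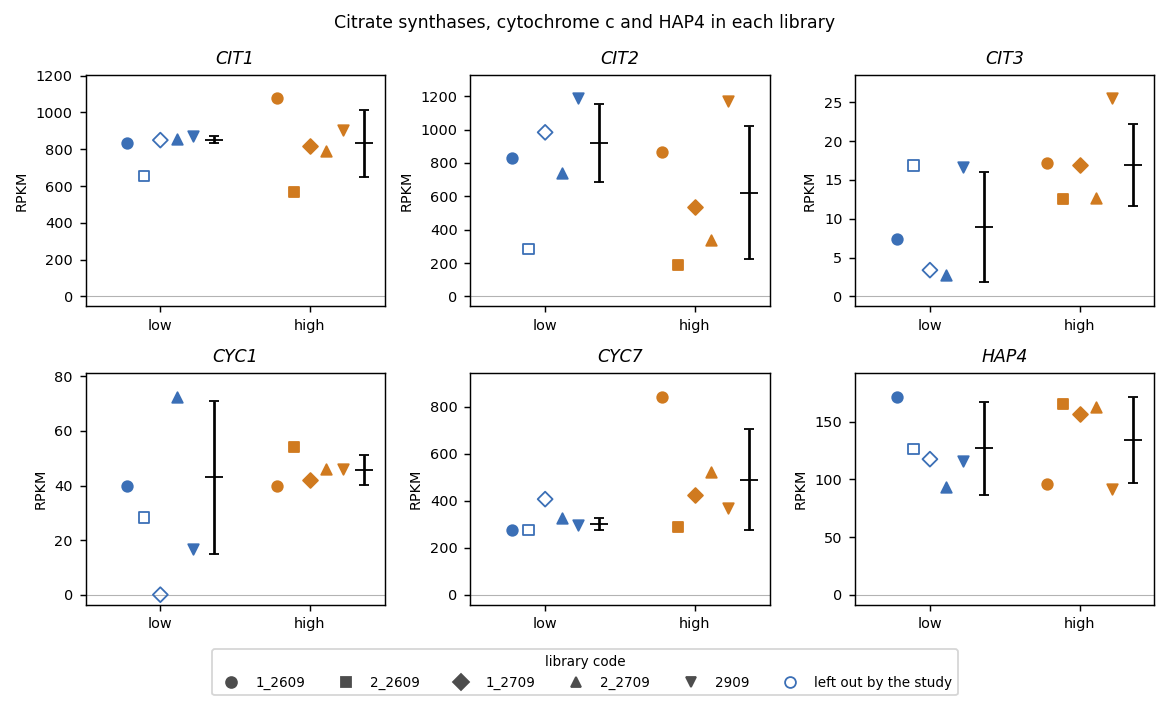
Levels of CIT1, CIT2, CIT3, CYC1, CYC7 and HAP4 in RPKM in each library, low left of high, with a marker shape per code and open markers for the low libraries left out by the study; bars are the mean and SD over 3 low and 5 high libraries. CIT2 ranges between 190.4 and 1187 RPKM, with L1_2609 near H1_2609 and L_2909 near H_2909, and CYC7 lies above CYC1 in every library.

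The 10 genes of the other TCA cycle steps had no gene past the test, with a median log2 fold change of -0.03 (6 below 0, 4 above) and a range of -0.48 to 0.15. Over the high libraries their median coefficient of variation was 17.9%, against 21.8 to 36.1% in the respiratory complexes. LSC1, the alpha subunit of succinyl-CoA ligase, was the most abundant of the 10. It was at 735, 733 and 669 RPKM in low and 667 and 819.8 RPKM in left-out low, against 779.5, 816, 837, 878 and 774 RPKM in high. All low libraries used lay below all high libraries, while left-out L1_2709 lay among them. LSC1 had a log2 fold change of -0.20 (SE 0.11, 95% interval -0.45 to 0.05, adjusted p = 0.419). LSC2, the beta subunit, was at 711 to 779.7 RPKM in the low libraries used and 659 to 766 RPKM in the high libraries, with a log2 fold change of 0.06.

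FUM1 (YPL262W, chrXVI:47336-48802, plus strand), the fumarase that serves both the mitochondrion and the cytosol, was the lowest of the 10 and had the smallest unadjusted p-value of the 49 genes in the 8 libraries. Its level was 106, 97.3 and 93.0 RPKM in low and 109.6 and 112 RPKM in left-out low, against 170.4, 113, 121, 134 and 151 RPKM in high. Every low library lay below every high one, although the highest low value (112) and the lowest high value (113) nearly met. Low averaged 98.8 ± 6.66 RPKM and high 138 ± 23.1 RPKM. FUM1 had a log2 fold change of -0.48 (SE 0.15, 95% interval -0.82 to -0.15, adjusted p = 0.119), a difference that did not pass the adjusted threshold, and it was -0.39 without H1_2609. In the R64 sequence a CCAATNA on the other strand stands 274 bases before its start codon, as printed above.

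LPD1 also separated the groups in the 8 libraries. It was at 328, 315 and 298 RPKM in low and 301 and 355 RPKM in left-out low, against 428, 348, 378, 387 and 367 RPKM in high, so left-out L1_2709 reached into the range of the high libraries. LPD1 had a log2 fold change of -0.29 (SE 0.12, 95% interval -0.54 to -0.03, adjusted p = 0.233). KGD1 and KGD2, which form the 2-oxoglutarate dehydrogenase complex together with LPD1, had log2 fold changes of 0.02 and 0.00. Mitochondrial malate dehydrogenase, MDH1, which regenerates oxaloacetate, was at 396 ± 42.5 RPKM in low and 468 ± 136 RPKM in high, with H1_2609 the highest library at 676 RPKM.

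Isocitrate dehydrogenase, the step after aconitase, was the one enzyme with a subunit higher in low in every code. IDH2 was at 533, 430.4 and 392 RPKM in low and 421 and 542 RPKM in left-out low, against 432, 359, 500.1, 399.8 and 346 RPKM in high. The groups overlapped, and the highest values were in L1_2609 and left-out L1_2709. IDH2 had a log2 fold change of 0.15 (SE 0.16, 95% interval -0.21 to 0.51, adjusted p = 0.724). Its partner subunit IDH1 had a log2 fold change of -0.05 and was higher in low in 3 of 5 codes, and aconitase, ACO1, had 0.08 and was higher in low in 4 of 5 codes. IDH2 overlaps the antisense gene IRC14 by 251 bases, so reads of both cannot be told apart where counting did not use strand.

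Succinate dehydrogenase, which belongs to both the cycle and the chain, showed the H1_2609 pattern in all 4 subunits: each was highest in that library and lowest in H2_2609 among the high libraries. SDH4, a membrane anchor subunit and the most abundant of the 4, was at 788, 833 and 623 RPKM in low and 567 and 587 RPKM in left-out low, against 1507, 766, 829, 841 and 769 RPKM in high. H1_2609 was far above any other library, low was below high within every code, and the ranges of the groups overlapped. SDH4 had a log2 fold change of -0.33 (SE 0.24, 95% interval -0.87 to 0.20, adjusted p = 0.548), and -0.10 without H1_2609.

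SDH1, the flavoprotein subunit that oxidises succinate, was the least abundant of the 4 in mean level. It was at 315, 342 and 252 RPKM in low and 249 and 213 RPKM in left-out low, against 472, 287, 318, 336 and 291 RPKM in high, again with the groups overlapping. SDH1 had a log2 fold change of -0.17 (SE 0.19, 95% interval -0.60 to 0.26, adjusted p = 0.734). SDH3, the other membrane anchor, had the fold change closest to 0 of the 4. It stood at 636, 795 and 781 RPKM in low and 574 and 663 RPKM in left-out low, against 949, 638, 673, 712 and 733 RPKM in high, which gave a log2 fold change of -0.01 (SE 0.16, 95% interval -0.36 to 0.34, adjusted p = 0.99). SDH2, the iron-sulphur subunit, was at 928 RPKM in H1_2609 and at 441 to 481 RPKM in the other high libraries, with a log2 fold change of -0.16 with and 0.11 without that library. SDH1 shares 75.9% of its aligned coding bases with YJL045W but no run above 23 bases, and all its 30-base words were unique in the genome.

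The 3 NADH dehydrogenases lay between 179 and 619 RPKM in the 10 libraries, and none passed the test. Ndi1 oxidises NADH in the matrix, Nde1 and Nde2 on the outer face of the inner membrane. NDI1 was at 349, 358 and 295 RPKM in low and 259 and 345 RPKM in left-out low, against 619, 249.9, 335, 343 and 376 RPKM in high. H1_2609 stood far above the rest and the other 9 libraries overlapped. NDI1 had a log2 fold change of -0.20 (SE 0.26, 95% interval -0.78 to 0.37, adjusted p = 0.773), and 0.03 without that library.

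NDE1 and NDE2 changed rank between libraries. NDE1 was at 243, 244 and 217 RPKM in low and 294 and 297 RPKM in left-out low, against 306, 262, 298, 296 and 204 RPKM in high. NDE2 was at 289.9, 269 and 254 RPKM in low and 197 and 232 RPKM in left-out low, against 426, 179, 187, 215 and 245 RPKM in high. NDE1 exceeded NDE2 in both left-out low libraries and in H2_2609, H1_2709 and H2_2709, and was below it in the 3 low libraries used and in H1_2609 and H_2909, with ratios of 0.84 to 0.91 in the low libraries used and 0.72 to 1.60 in the high libraries. The log2 fold changes were -0.22 (SE 0.15, 95% interval -0.56 to 0.12, adjusted p = 0.524) for NDE1 and 0.11 (SE 0.27, 95% interval -0.49 to 0.72, adjusted p = 0.883) for NDE2. Their coding sequences share no run above 11 bases.

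In the cytochrome bc1 complex, which passes electrons from ubiquinol to cytochrome c, 8 of 9 subunits had a fold change below 0 and their median was -0.08, which became 0.09 without H1_2609. All 9 were highest in that library among the high ones. QCR8 was the most abundant of all 49 genes. It was at 1306, 1396 and 1304 RPKM in low and 1053 and 2019 RPKM in left-out low, against 1925, 1078, 1235, 1266 and 1567 RPKM in high. Left-out L1_2709 was the highest of the 10 libraries and the groups overlapped. QCR8 had a log2 fold change of -0.08 (SE 0.19, 95% interval -0.50 to 0.33, adjusted p = 0.875).

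QCR7 (YDR529C, chrIV:1496165-1496548, minus strand) had the most negative fold change of the complex. This small subunit, which lies on the matrix side, was at 382, 409 and 389 RPKM in low and 362 and 361 RPKM in left-out low, against 856, 377, 509.6, 505 and 629 RPKM in high. All 5 low libraries lay between 361 and 409 RPKM, and 4 of the 5 high libraries lay above them, with H2_2609 inside their range. Low averaged 393 ± 13.7 RPKM and high 575 ± 180.4 RPKM. QCR7 had a log2 fold change of -0.55 (SE 0.23, 95% interval -1.06 to -0.04, adjusted p = 0.257), and -0.36 without H1_2609.

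At the other end QCR9, another small subunit, had the most positive fold change of the complex at 0.06 (SE 0.18, 95% interval -0.33 to 0.45, adjusted p = 0.911). It was at 1049, 746 and 764 RPKM in low and 692 and 1544 RPKM in left-out low, against 1046, 669.6, 755, 761 and 855 RPKM in high. Left-out L1_2709 was again the highest, as it was for QCR10 (1569 RPKM, against 604 to 773 RPKM in the other low libraries). RIP1, the Rieske iron-sulphur protein, had the lowest mean of the 9. It stood at 338, 468 and 221 RPKM in low and 300.2 and 313 RPKM in left-out low, against 632, 294, 330.2, 338 and 312 RPKM in high, so the low libraries used spread over a wider range than the high libraries other than H1_2609. RIP1 had a log2 fold change of -0.16 (SE 0.30, 95% interval -0.83 to 0.52, adjusted p = 0.858). The core subunits COR1 (-0.07) and QCR2 (-0.04) and the haem protein cytochrome c1, CYT1 (-0.19), had no fold change past the test, and neither had the hinge protein QCR6 and the small subunit QCR10 at -0.20 and -0.04.

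Cytochrome c, the mobile carrier between the bc1 complex and the oxidase, is encoded by CYC1, the main form in respiring cells, and CYC7, a form known for its expression at low oxygen. Here CYC7 was the more abundant transcript in every library. CYC7 (YEL039C, chrV:79636-79977, minus strand) was at 276, 326 and 294 RPKM in low and 276 and 407 RPKM in left-out low, against 843, 288, 426, 521 and 368 RPKM in high. H1_2609 was the highest, low was below high within every code, and L1_2709 and H2_2609 kept the groups overlapping. CYC7 had a log2 fold change of -0.71 (SE 0.30, 95% interval -1.39 to -0.03, adjusted p = 0.27), and -0.42 without H1_2609.

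CYC1 was at 39.7, 72.6 and 16.7 RPKM in low and 28.2 and 0 RPKM in left-out low, against 39.9, 54.2, 42.2, 45.9 and 45.9 RPKM in high. The 5 high libraries lay close together while the low libraries ran from 0 counts to the highest value of all. CYC1 had a log2 fold change of -0.09 (SE 0.41, adjusted p = 0.949), an interval from 0.50-fold to 1.78-fold. CYC7 was 4.49 to 17.6 times CYC1 in the low libraries used and 5.31 to 21.1 times in the high libraries. In left-out L1_2709 CYC1 had 0 counts, and CYC7 was 695-fold above the level of 3 counts, 0.585 RPKM. That floor covers counting error only. This library had 1552 genes at 0 and 43 at 1 to 9 counts, and so few small counts were common to all low libraries (28 to 47 genes). Whether the 0 of L1_2709 bounds the level of CYC1 was not tested. The coding sequences share 76.4% of aligned bases and a run of 35 bases, and 98.0% of the 30-base words of CYC1 and 98.1% of those of CYC7 were unique in the genome.

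Cytochrome c oxidase, which reduces oxygen, is built around subunits encoded in the mitochondrion, so only its nuclear-encoded subunits are covered. Of 7 subunits 6 had a fold change below 0, with a median of -0.09 that became 0.02 without H1_2609. COX9, a small subunit, was the most abundant at 1025, 1231 and 1061 RPKM in low and 954 and 1104 RPKM in left-out low, against 1304, 931, 1015, 1017 and 1401 RPKM in high. The groups overlapped, and H1_2609 and H_2909 were the highest. COX9 had a log2 fold change of -0.04 (SE 0.16, 95% interval -0.40 to 0.32, adjusted p = 0.942).

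COX8, another small subunit, was the only oxidase gene of the 7 whose groups separated in the 8 libraries. It was at 389, 392 and 292 RPKM in low and 376 and 492 RPKM in left-out low, against 707, 411, 408, 427 and 400.0 RPKM in high. H1_2609 stood apart, the other 4 high libraries lay within 400.0 and 427 RPKM, and left-out L1_2709 exceeded those 4. COX8 had a log2 fold change of -0.40 (SE 0.22, 95% interval -0.88 to 0.09, adjusted p = 0.391), and -0.20 without H1_2609. The printed window of COX8 holds CCAATNA 194 bases before the start codon.

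COX7 had the most positive fold change of the complex. It was at 551, 752 and 554 RPKM in low and 368 and 413 RPKM in left-out low, against 762, 460.0, 492, 557 and 629 RPKM in high, with L2_2709 and H1_2609 the highest of their groups, and a log2 fold change of 0.09 (SE 0.19, 95% interval -0.34 to 0.52, adjusted p = 0.867). COX6, the least abundant, was at 330.4, 362 and 254 RPKM in low and 273 and 218 RPKM in left-out low, against 544, 251, 264, 313 and 301 RPKM in high. H1_2609 was the highest by far and the rest overlapped. COX6 had a log2 fold change of -0.09 (SE 0.26, 95% interval -0.66 to 0.49, adjusted p = 0.912), which turned to 0.16 without that library. The remaining subunits COX4 (-0.06), COX12 (-0.09) and COX13 (-0.18) did not pass the test either.

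The ATP synthase makes ATP from the proton gradient, and 9 of its 10 genes had a fold change below 0 with a median of -0.21. Of the 10 genes, 7 kept a value below 0 under all 19 alternative settings, and the median was -0.07 without H1_2609. The settings refit the same libraries, so kept signs are not independent results. The share of all genes tested that kept their sign was not counted. None of them passed the test in the 8 libraries. ATP5 (YDR298C, chrIV:1058176-1058814, minus strand), the peripheral stalk subunit that corresponds to OSCP of other organisms, was at 470.2, 519 and 362 RPKM in low and 379 and 322 RPKM in left-out low, against 639, 483, 517, 618 and 506 RPKM in high. Low was below high within every code, while the ranges overlapped because L2_2709 exceeded 3 of the high libraries. ATP5 had a log2 fold change of -0.30 (SE 0.16, 95% interval -0.65 to 0.06, adjusted p = 0.377). With the replicate block over all 10 libraries it was -0.44 (edgeR, adjusted p = 0.0446), the one fit of those run in which ATP5 passed the threshold, and with the block in the 8 libraries the adjusted p was 0.301.

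ATP16, the delta subunit of the rotor stalk, had the most negative fold change of the complex. It was at 371, 353 and 239 RPKM in low and 293 and 256 RPKM in left-out low, against 587, 362, 374, 405 and 338 RPKM in high. Low was below high within every code and the groups overlapped. ATP16 had a log2 fold change of -0.37 (SE 0.21, 95% interval -0.84 to 0.11, adjusted p = 0.43), and with the replicate block over all 10 libraries the adjusted p was 0.0637. ATP15, the epsilon subunit and the most abundant of the 10, was at 923, 916 and 966 RPKM in low and 684 and 617 RPKM in left-out low, against 1109, 888, 1059, 1164 and 1319 RPKM in high. Both left-out low libraries were the lowest of the 10 and H_2909 was the highest. ATP15 had a log2 fold change of -0.25 (SE 0.14, 95% interval -0.55 to 0.06, adjusted p = 0.4), and the block over all 10 libraries gave an adjusted p of 0.0658.

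ATP4, a stalk subunit, was the only ATP synthase gene with a fold change above 0. It was at 575, 595 and 388 RPKM in low and 412 and 579.9 RPKM in left-out low, against 640.4, 457, 477, 514 and 380.0 RPKM in high. The groups overlapped throughout, and its log2 fold change was 0.07 (SE 0.20, 95% interval -0.37 to 0.51, adjusted p = 0.901). ATP3, the gamma subunit of the rotor, had the lowest mean. It stood at 254, 368 and 231 RPKM in low and 191 and 231 RPKM in left-out low, against 413, 261, 247, 289 and 215 RPKM in high, with a log2 fold change of 0.00 (SE 0.23, 95% interval -0.52 to 0.51, adjusted p = 0.997). The catalytic head subunits ATP1 and ATP2 had log2 fold changes of -0.19 and -0.21, and the stalk and membrane subunits ATP7, ATP14 and ATP17 had -0.08, -0.31 and -0.21. ATP1 overlaps the antisense gene YBL100C by 251 bases and ATP14 overlaps YLR294C on its own strand by 32 bases, so the assignment of reads there is uncertain.

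HAP4, the activating subunit of the Hap complex, overlapped fully between the subpopulations. It was at 172, 93.3 and 116 RPKM in low and 126 and 118 RPKM in left-out low, against 96.0, 165, 157, 163 and 91.4 RPKM in high. The lowest values were those of L2_2709, H1_2609 and H_2909. Low averaged 127 ± 40.5 RPKM and high 135 ± 37.4 RPKM, and the log2 fold change was -0.08 (SE 0.27, 95% interval -0.68 to 0.51, adjusted p = 0.918). H1_2609, the highest high library for 39 of the 49 genes, had 96.0 RPKM of HAP4. H_2909 had 91.4 RPKM, and H2_2609, H1_2709 and H2_2709 had 157 to 165 RPKM. HAP4 was higher in low in 2 of the 5 codes.

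The other genes of the pathway were read from 9 further lists of 122 genes, all found in the table. Of the 115 tested, 1 was higher in low and 0 were lower (0.870%, against 5.16% of all genes tested), and in the fit to all 10 libraries 0 were called in either direction. The lists covered pyruvate dehydrogenase and pyruvate carriers (11 genes, median log2 fold change 0.04), the other TCA and glyoxylate enzymes (15, -0.01), the other respiratory subunits (13, -0.05), assembly factors (32, 0.16), ubiquinone synthesis (10, -0.03), mitochondrial carriers (13, -0.08), the other electron donors (6, 0.13) and the Hap and retrograde regulators (15, 0.20). The gene called was PET100, which helps to assemble cytochrome c oxidase. PET100 was at 256, 300.4 and 262 RPKM in the low libraries used and 159 and 339 RPKM in the left-out low libraries, against 175, 175, 179.6, 187 and 177 RPKM in the high libraries. The low libraries used lay above all high libraries, while left-out L2_2609 lay below them. Its log2 fold change was 0.61 (SE 0.12, adjusted p = 0.0192). The call was lost with the replicate block in the same 8 libraries (edgeR, 0.59, adjusted p = 0.212). That fit compares 3 pairs only, since H2_2609 and H1_2709 have no low library of their code there. It was also lost in the edgeR fit to all 10 libraries without a block (0.56, adjusted p = 0.144). The 7 mitochondrially encoded subunits were not tested, since their highest count in any library was 50 and the RNA had been selected by poly-T.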

How the data were processed

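RNA sequencing of 5 low and 5 high subpopulation libraries was analysed. The authors filtered the reads for adaptors, undetermined bases and quality, aligned them with HISAT2 to an Ensembl genome and annotation, and deposited whole-number read counts per gene; the counting tool and its use of strand are not given in the sources used here. The deposited FPKM table was not used. Gene starts in the table equal those of R64 for 6043 of 6048 shared identifiers, so R64 sequence was read at these coordinates.

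The 3 low and 5 high libraries of the study were compared with edgeR 4.0.16 in R 4.3.3: filterByExpr, TMM, glmQLFit and glmQLFTest without a covariate, with p-values adjusted by Benjamini-Hochberg (6492 genes, threshold 0.05). The study itself used DESeq2 (here 1.42.0, as an alternative). RPKM used the gene lengths of the table, with TMM factors over all 10 libraries. On the log2 scale, a count of 0 was set at 3 counts of its library. The 49 genes and all lists were chosen with earlier results of these data known. Each gene may be named, and values in every library are given for those highest or lowest in level or fold change within a complex, those called in any fit, genes whose groups separated, the isoenzymes and HAP4. The biological coefficient of variation was 0.355 in 8 libraries and 0.458 in 10. Alternatives were other normalizations, other filters, DESeq2, limma-voom 3.58.1 with quality weights, all 10 libraries, blocks and leaving out each library. The edgeR, DESeq2 and limma-voom fits were also run on simulated counts. The simulated libraries were independent, with no shared codes and no outlying library, so the simulation does not cover these features of the data.

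Equal codes in the titles were treated as pairs, because the deviations of low and high from their group means correlated above 0.1 in each of the 3 pairs of the 8 libraries (r = 0.269, 0.105 and 0.297 over 4372 genes). Over all 10 libraries the 5 correlations were between 0.02 and 0.60. The pair of L2_2709 and H2_2709 was the weakest in both sets (r = 0.105 and 0.0226). In both, L2_2709 correlated more with a high library of another code than with H2_2709, so this pair is uncertain. Differences within codes and fits with the replicate block rest on these pairs. In the 8 libraries H2_2609 and H1_2709 have no low library of their code, so the block fit there rests on 3 pairs. No 2 libraries of a group were alike within counting noise, with a chi-square per degree of freedom of at least 36.4. Reads carry no molecular identifiers, so the floor of 3 counts covers counting error only. Of the 122 other genes, 13 were matched through R64 symbols.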

Additional observations from a re-analysis of the deposited data

Results flagged for a closer look

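Among the 98 sets of 5 libraries (49 genes, low and high), 17 had a library whose distance to the nearest other library took up most of the range. The limit used is passed by chance in about 1 in 20 independent sets, and these sets are not independent, since they share the same 10 libraries. The rule was applied to the 49 genes only, so its share over all genes tested was not counted. H1_2609 was the distant library in 13 of the 17. In succinate dehydrogenase and the NADH dehydrogenases it stood at 472 RPKM for SDH1, 928 RPKM for SDH2, 1507 RPKM for SDH4 and 426 RPKM for NDE2. In the cytochrome bc1 complex it was at 707 RPKM for QCR2, 588 RPKM for CYT1 and 632 RPKM for RIP1. In cytochrome c oxidase it was at 634 RPKM for COX4, 544 RPKM for COX6 and 707 RPKM for COX8. In the ATP synthase it was at 743 RPKM for ATP1 and 587 RPKM for ATP16, and in the cycle at 289.6 RPKM for KGD1. All 13 were high values, the next highest high library being at 481 RPKM for SDH2 and 841 RPKM for SDH4. Over all genes tested the same library had a median deviation of 0.00 on the log2 scale, a median that TMM scaling keeps near 0 in every library. Its total of 27752702 counts was the largest of the 10 and its TMM factor of 0.940 the smallest. H2_2609, the lowest high library for 36 of the 49 genes, had 27637435 counts and the largest TMM factor of the 10, 1.095. The part of depth or scaling in the high values of H1_2609 was not tested.

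The other 4 were low libraries. L2_2609 was lowest for CIT1 (654 RPKM, the next at 833 RPKM) and for KGD1 (179 RPKM, the next at 208 RPKM). L_2909 was lowest for ACO1 (448 RPKM, the next at 556 RPKM). L1_2709 was highest for QCR10 (1569 RPKM, the next at 773 RPKM). L2_2609 and L1_2709 are the libraries that the study left out.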

How the results depend on the processing

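The count of 0 genes called among the 49 was the same under 18 of 19 alternatives, and 1 gene, ATP5, passed with the replicate block over all 10 libraries. Over all genes the count of 335 moved to 97 with the replicate block in the 8 libraries, to 602 with DESeq2, to 588 with limma-voom and quality weights, to 221 with a CPM of at least 10 in 3 libraries, and to 149 over all 10 libraries without H1_2609, a fit chosen after seeing the data. Leaving out each library in turn gave 113 (without H1_2709) to 437 (without L1_2609), with 119 without H2_2709 and 211 without H2_2609. The median log2 fold change of the 49 genes was between -0.23 (replicate block, 8 libraries) and 0.01 (without H1_2609); it was above 0 only there. Of 931 single values, 103 changed sign, 27 moved by more than the spread and 1 passed the threshold. Throughout, 20 genes kept a value below 0 and CIT2 and IDH2 one above 0. The settings refit the same libraries, and the share of all genes tested that kept their sign was not counted. PET100 lost its call in 7 alternatives. The count of 0 for CYC1 in L1_2709 was set at 0.585 RPKM (3 counts), which covers counting error only.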
